A study of Mus musculus with 8 samples.

Results

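The Myc, Max and Mxd network was followed in Lewis lung carcinoma (LLC) cells, a mouse lung tumor line, that either carried or lacked FIH, the asparagine hydroxylase encoded by Hif1an that acts on hypoxia-inducible factors (HIFs). Its 10 genes, Myc, Mycn, Mycl, Max, Mxd1, Mxd3, Mxd4, Mxi1, Mnt and Mlx, were taken by symbol from a table of 53700 genes, and 8 of them were among the 13933 genes with enough reads to be tested. Poly(A) RNA was sequenced from 4 groups of 2 libraries each: wild-type (WT) cells and FIH-KO cells, each cultured for 16 hours at 21% O2 (normoxia) or at 1% O2 (hypoxia). Whether the WT cells had been through transfection with the nontargeting control guide is not given in the sources used here. FIH-KO cells had been made with Cas9 and a guide to Hif1an followed by single-cell dilution, and the number of clones behind the FIH-KO libraries is not given in the sources used here, so loss of FIH and a property of a clone cannot be told apart. Nothing in the sources says that the 2 libraries of a group came from separate cultures, so every p-value measures only the spread between these libraries, which may be technical.

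Myc, Mycn and Mycl encode transcription factors that activate growth, ribosome and metabolic genes once they dimerize with Max. The same Max protein also pairs with Mxd1, Mxd3, Mxd4, Mxi1 and Mnt, and these dimers bring Sin3 and histone deacetylase corepressors to the same E-box sites, so the levels of the activating and the repressing partners relative to each other matter for the network. Mlx is a parallel partner that pairs with some Mxd proteins and Mnt and, in separate dimers, with the glucose-sensing factors MondoA (encoded by Mlxip) and ChREBP (Mlxipl). In tumor cells the network is known for its ties to oxygen sensing, since Mxi1 is a target of HIF and Myc is deregulated in many lung cancers.

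Libraries held between 14519731 and 18177016 reads assigned to genes. The targeted gene, Hif1an, was read at 84.6 and 82.3 CPM (counts relative to the TMM-scaled library size) in WT normoxia, 90.2 and 84.0 in WT hypoxia, 34.8 and 37.7 in FIH-KO normoxia and 45.5 and 51.0 in FIH-KO hypoxia, so the transcript was lower but still present in all 4 FIH-KO libraries. All 9 measured genes of a list of known hypoxia targets were higher at 1% O2 in both genotypes, with a median log2 fold change of 2.57 in WT and 2.73 in FIH-KO cells. Their summed level was 2973 and 2618 CPM in the WT hypoxia libraries and 4393 and 3313 CPM in the FIH-KO hypoxia libraries. In normoxia the genotypes overlapped, at 703 and 627 CPM in WT and 878 and 699 CPM in FIH-KO libraries. In FIH-KO against WT cells, 2 of the 9 were called higher at 21% O2 and 4 at 1% O2. Of all genes, 15.2% and 14.1% were called higher there. Of 8 carcinoma markers only Krt8, Krt18 and Krt19 had enough reads to be tested, while the epithelial genes Epcam and Cdh1 had at most 1 read in any library. Krt8 was called higher in FIH-KO cells at 21% O2 (log2 1.02, edgeR adjusted p = 0.00066) and at 1% O2 (log2 1.00, edgeR adjusted p = 0.00083). Krt18 and Krt19 were not called between genotypes. All 6 mesenchymal markers were tested, and their summed level was 4381 to 5983 CPM in the WT libraries and 8206 to 11010 CPM in the FIH-KO libraries, a sum made up almost wholly of Fn1 (fibronectin) and Vim (vimentin). These 2 were the mesenchymal markers called higher in FIH-KO cells at 21% and at 1% O2. The receptor gene Pdgfra fell at 1% O2 (log2 -0.87, edgeR adjusted p = 0.032, called in 9 of 16 alternatives), and the other 3 were not called between genotypes. The part of these marker differences in the results for the network was not tested. The 7 leukocyte and endothelial markers together came to between 3.02 and 8.19 CPM.

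The 300 bases upstream of the start of the canonical transcript were read for all 10 genes (GRCm39, strand of the gene), and 5 are shown because the results below turn on these genes. Capitals mark every CACGTG, the E-box bound by Myc-Max and Mxd-Max dimers, and every ACGTG or GCGTG, the core of a hypoxia response element, searched on both strands, so that a core on the other strand appears as CACGT or CACGC. Each CACGTG holds 2 overlapping cores, 1 on each strand.
Myc, chr15:61856927-61857226, plus strand: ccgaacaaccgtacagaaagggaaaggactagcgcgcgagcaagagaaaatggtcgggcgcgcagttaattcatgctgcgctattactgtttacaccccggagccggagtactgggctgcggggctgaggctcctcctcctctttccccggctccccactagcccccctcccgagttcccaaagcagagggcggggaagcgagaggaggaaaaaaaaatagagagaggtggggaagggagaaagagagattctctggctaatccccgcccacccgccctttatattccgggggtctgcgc
Max, chr12:77009001-77009300, minus strand: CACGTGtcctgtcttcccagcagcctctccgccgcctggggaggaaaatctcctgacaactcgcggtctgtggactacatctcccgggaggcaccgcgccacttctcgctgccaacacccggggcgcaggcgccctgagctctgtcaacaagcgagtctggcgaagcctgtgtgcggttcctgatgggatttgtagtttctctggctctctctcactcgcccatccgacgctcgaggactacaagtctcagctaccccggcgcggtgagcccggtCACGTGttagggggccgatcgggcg
Mxi1, chr19:53317544-53317843, plus strand: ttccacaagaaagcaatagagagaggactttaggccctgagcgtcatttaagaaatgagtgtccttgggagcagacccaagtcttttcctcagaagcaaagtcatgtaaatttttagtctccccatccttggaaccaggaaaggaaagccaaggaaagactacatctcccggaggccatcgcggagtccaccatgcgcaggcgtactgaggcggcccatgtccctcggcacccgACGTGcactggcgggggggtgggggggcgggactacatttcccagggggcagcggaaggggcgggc
Mxd4, chr5:34345241-34345540, minus strand: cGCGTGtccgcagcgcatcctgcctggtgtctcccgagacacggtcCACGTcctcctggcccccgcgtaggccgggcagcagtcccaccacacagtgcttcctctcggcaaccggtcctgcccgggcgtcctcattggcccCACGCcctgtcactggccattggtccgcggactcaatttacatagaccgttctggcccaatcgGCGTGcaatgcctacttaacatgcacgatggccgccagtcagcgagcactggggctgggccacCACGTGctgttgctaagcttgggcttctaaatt
Mxd3, chr13:55477605-55477904, minus strand: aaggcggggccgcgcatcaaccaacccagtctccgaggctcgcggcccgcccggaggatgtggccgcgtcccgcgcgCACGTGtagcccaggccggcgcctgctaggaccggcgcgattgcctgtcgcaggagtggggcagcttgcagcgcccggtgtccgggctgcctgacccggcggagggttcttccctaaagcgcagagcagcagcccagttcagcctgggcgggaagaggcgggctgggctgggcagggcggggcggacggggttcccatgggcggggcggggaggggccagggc
The Mxd4 window held 1 E-box, starting 33 bases before the transcript start, and 6 hypoxia response cores in all, while the Max window held 2 E-boxes. A single core stood in the Mxi1 window, 66 bases before the start of its canonical transcript, which begins inside the annotated gene because Mxi1 has several alternative starts. The Mxd3 window held 1 E-box, 223 bases before the start, and the Myc window held neither motif. Of the other members, Mlx had 1 E-box, Mxd1 had 2 cores and no E-box, and Mycn, Mycl and Mnt had neither. For comparison, 6.95% of the 21770 canonical promoters of protein-coding genes held an E-box and 45.1% held a core in a window of the same length. These matches describe letters only and do not show binding.

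Among the activating members, Myc carried nearly all reads. Mycn had no read in any of the 8 libraries, where 3 reads would correspond to between 0.168 and 0.205 CPM, so a level up to that limit was not detectable at this depth. Mycl, the family member first described in small cell lung cancer, had 0 and 2 reads in WT normoxia, 0 and 0 in FIH-KO normoxia, 4 and 17 in WT hypoxia and 2 and 2 in FIH-KO hypoxia, too few to be tested. Its highest value stood in a single WT hypoxia library.

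Myc was read at 252 and 204 CPM in WT normoxia, 92.9 and 129 CPM in FIH-KO normoxia, 1169 and 750 CPM in WT hypoxia and 467 and 228 CPM in FIH-KO hypoxia. Both WT hypoxia libraries stood above all others, both FIH-KO normoxia libraries stood below all others, and the lower FIH-KO hypoxia library fell inside the WT normoxia range. In both hypoxia groups the library numbered 1 had the higher Myc level, and the gap within the pair was wider than in the normoxia groups. At 1% O2 Myc rose 4.21-fold in WT cells (log2 2.07 ± 0.30 SE, adjusted p = 0.00038, edgeR quasi-likelihood test with Benjamini-Hochberg adjustment over all genes tested, as for every adjusted p below unless another tool is named). In FIH-KO cells Myc rose 3.14-fold with hypoxia (log2 1.65 ± 0.30 SE, edgeR adjusted p = 0.0032). Both rises kept their call in every alternative fit, with log2 values of 1.68 to 2.35 in WT and 1.07 to 2.07 in FIH-KO cells when single libraries were left out. A bulk measurement like this one cannot tell fewer cells with high Myc from less Myc RNA in each cell.

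In FIH-KO cells Myc fell by 1.47 on the log2 scale at 1% O2 (0.29 SE, edgeR adjusted p = 0.0032), a 2.76-fold lower level that kept its call in every alternative. At 21% O2 Myc fell by 1.04 (0.29 SE, edgeR adjusted p = 0.020), and this call was less secure. It was lost with DESeq2 (adjusted p = 0.075), without WT normoxia replicate 1 (log2 -0.91, edgeR adjusted p = 0.12) and without FIH-KO normoxia replicate 1 (log2 -0.85, edgeR adjusted p = 0.15). The change of Myc with FIH loss did not differ detectably between 1% and 21% O2 (difference -0.42 on the log2 scale, 95% interval -1.31 to 0.47, edgeR adjusted p = 0.88). Myc was among the genes the study itself singled out from these libraries, so its direction here is not independent evidence. Separately from these libraries, the study reported lower Myc by qPCR in FIH-KO LLC cells, with technical replicates shown, and in a human FIH-KO lung cancer line.

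**Figure D1:**
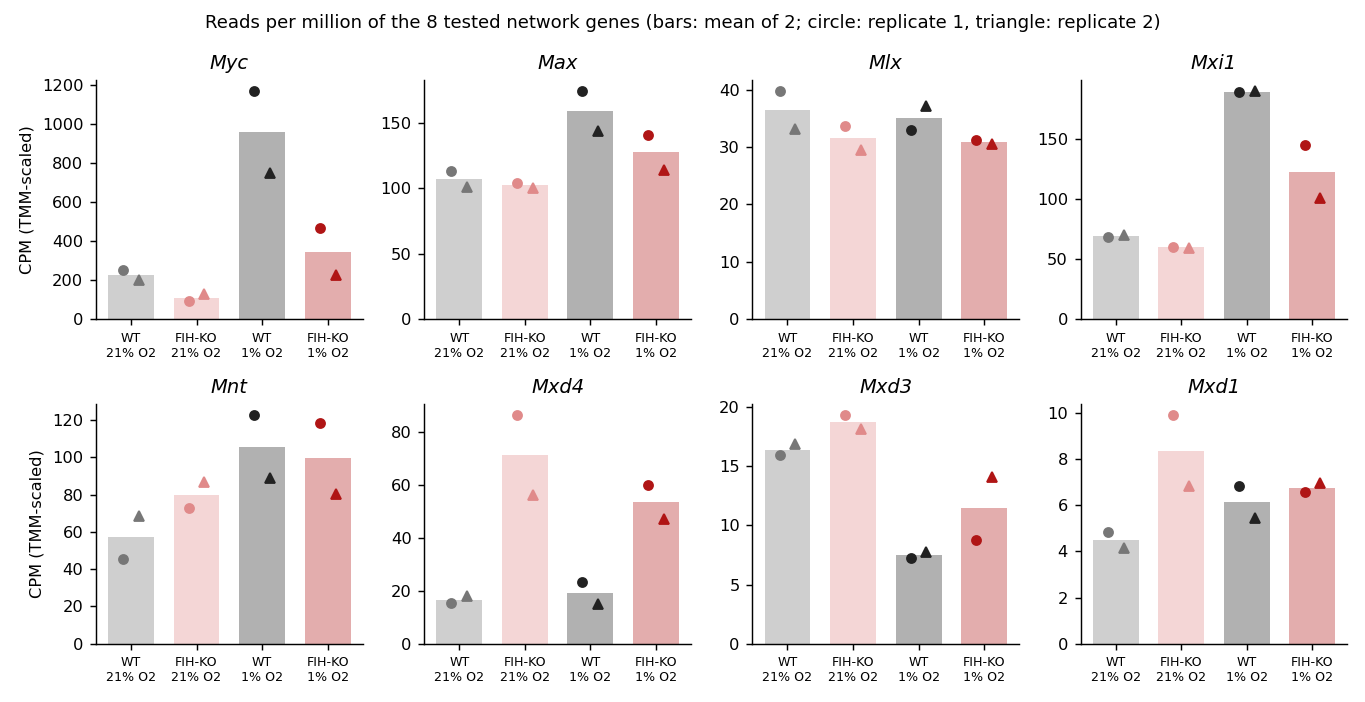
Counts relative to library size (CPM, linear axis from 0, TMM-scaled) of the 8 tested genes in each library. Bars are the mean of the 2 libraries of a group, circles replicate 1 and triangles replicate 2. Myc reaches 1169 and 750 CPM in WT hypoxia, Mxi1 rises at 1% O2 in both genotypes, Mxd4 is high in the 4 FIH-KO libraries (47.3 to 86.3 CPM) and Mxd3 is low in WT hypoxia (7.23 and 7.71 CPM).

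Across the network, 3 of the 8 tested members were called in FIH-KO against WT cells at 21% O2, against 28.2% of all genes tested: Mxd4 and Mxd1 were higher and Myc was lower. At 1% O2 it was again 3 of 8, against 28.0% of all genes: Mxd4 was higher, and Myc and Mxi1 were lower. With hypoxia, 5 of 8 members were called in WT cells, against 32.4% of all genes: Myc, Mxi1, Max and Mnt were higher and Mxd3 was lower. In FIH-KO cells 3 of 8 were called, against 16.8% of all genes: Myc and Mxi1 were higher and Mxd3 was lower. At 21% O2 only Mxd4 stayed called without replicate 1 of WT normoxia or without replicate 1 of FIH-KO normoxia. Fewer of all genes were called in these fits too. At 1% O2 Max and Mxd3 were added without FIH-KO hypoxia replicate 1.

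Max, the obligate partner of both arms, moved little. Its level was 114 and 101 CPM in WT normoxia, 104 and 100.3 CPM in FIH-KO normoxia, 174 and 143 CPM in WT hypoxia and 141 and 114 CPM in FIH-KO hypoxia. Both WT hypoxia libraries stood above all others, the FIH-KO hypoxia libraries lay next, and the normoxia groups overlapped. In WT cells Max rose 1.48-fold with hypoxia (log2 0.57 ± 0.13 SE, edgeR adjusted p = 0.007), a call that was lost without WT normoxia replicate 2 (adjusted p = 0.11, edgeR) or without WT hypoxia replicate 1 (adjusted p = 0.11, edgeR). In FIH-KO cells the difference was 0.32 (0.13 SE, edgeR adjusted p = 0.13), which passed the test only without FIH-KO hypoxia replicate 2 (log2 0.46, edgeR adjusted p = 0.038). Between genotypes Max differed by -0.066 at 21% O2 (edgeR adjusted p = 0.75) and by -0.31 at 1% O2 (edgeR adjusted p = 0.098), and the latter was called when FIH-KO hypoxia replicate 1 was left out (log2 -0.43, edgeR adjusted p = 0.041).

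Of the repressing members, Mxi1, a known HIF target that can restrain Myc-driven mitochondrial genes, followed oxygen. It was read at 68.4 and 70.5 CPM in WT normoxia, 60.6 and 59.6 CPM in FIH-KO normoxia, 189.2 and 189.9 CPM in WT hypoxia and 145 and 101 CPM in FIH-KO hypoxia. All hypoxia libraries stood above all normoxia libraries, and within each oxygen level the FIH-KO libraries lay below the WT libraries without overlap. Mxi1 rose 2.73-fold with hypoxia in WT cells (log2 1.45 ± 0.15 SE, edgeR adjusted p = 3.7e-05) and 2.04-fold in FIH-KO cells (log2 1.03 ± 0.15 SE, edgeR adjusted p = 0.00075), and both calls held in every alternative. In FIH-KO cells it fell by 0.63 at 1% O2 (0.14 SE, edgeR adjusted p = 0.007), a call lost without WT hypoxia replicate 1 (log2 -0.60, edgeR adjusted p = 0.052). At 21% O2 the difference was -0.21 (edgeR adjusted p = 0.32).

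Mxd4, a Mxd protein associated with resting and differentiating cells, separated the genotypes. Its level was 15.2 and 17.9 CPM in WT normoxia, 23.2 and 15 CPM in WT hypoxia, 86.3 and 56.2 CPM in FIH-KO normoxia and 59.8 and 47.3 CPM in FIH-KO hypoxia. All 4 FIH-KO libraries stood above all 4 WT libraries, and the oxygen groups within a genotype overlapped. Mxd4 rose 4.29-fold in FIH-KO cells at 21% O2 (log2 2.10 ± 0.24 SE, edgeR adjusted p = 8.2e-05) and 2.79-fold at 1% O2 (log2 1.48 ± 0.23 SE, edgeR adjusted p = 0.00082), and it was called in both comparisons in every alternative. Its change with hypoxia did not pass the test in WT (log2 0.21, edgeR adjusted p = 0.54) or in FIH-KO cells (log2 -0.41, edgeR adjusted p = 0.23).

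Mxd3, a Mxd gene expressed during S phase of the cell cycle, moved against Mxi1. It was read at 15.9 and 16.9 CPM in WT normoxia, 19.3 and 18.1 CPM in FIH-KO normoxia, 7.23 and 7.71 CPM in WT hypoxia and 8.81 and 14.1 CPM in FIH-KO hypoxia. All 4 hypoxia libraries stood below all 4 normoxia libraries, with 1 FIH-KO hypoxia library close to the normoxia range. Mxd3 fell by 1.14 on the log2 scale with hypoxia in WT cells (0.22 SE, edgeR adjusted p = 0.0021), a 2.20-fold lower level that was called in every alternative. In FIH-KO cells it fell by 0.71 (0.21 SE, edgeR adjusted p = 0.036), and this call was lost in 9 of 16 alternatives, among them without any single normoxia library and without FIH-KO hypoxia replicate 1 (log2 -0.39, edgeR adjusted p = 0.23). The difference between genotypes at 1% O2 was 0.61 (0.22 SE, edgeR adjusted p = 0.055), and it passed the test without FIH-KO hypoxia replicate 1 (log2 0.95, edgeR adjusted p = 0.0038).

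Mxd1 (Mad1), the first Max-binding repressor to be described, was the least abundant tested member. Its level was 4.82 and 4.15 CPM in WT normoxia, 9.88 and 6.83 CPM in FIH-KO normoxia, 6.84 and 5.46 CPM in WT hypoxia and 6.56 and 6.96 CPM in FIH-KO hypoxia. The WT normoxia libraries were the lowest, and the other 3 groups overlapped. Mxd1 rose 1.86-fold in FIH-KO cells at 21% O2 (log2 0.90 ± 0.25 SE, edgeR adjusted p = 0.019), but the call was lost without WT normoxia replicate 1 (adjusted p = 0.082, edgeR), without WT normoxia replicate 2 (adjusted p = 0.15, edgeR) or without FIH-KO normoxia replicate 1 (log2 0.59, edgeR adjusted p = 0.20). At 1% O2 the difference was 0.13 (edgeR adjusted p = 0.73). The change with FIH loss was 0.77 lower at 1% than at 21% O2, which did not pass the test (log2 -0.77, 95% interval -1.53 to 0.0022, edgeR adjusted p = 0.75).

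Mnt, a ubiquitous Max partner that opposes Myc in growing cells, was read at 45.4 and 68.7 CPM in WT normoxia, 72.7 and 86.8 CPM in FIH-KO normoxia, 122 and 88.7 CPM in WT hypoxia and 118 and 80.4 CPM in FIH-KO hypoxia. The WT normoxia libraries were again below all others, and the FIH-KO hypoxia libraries overlapped with those of FIH-KO normoxia and of WT hypoxia. In WT cells Mnt rose 1.85-fold with hypoxia (log2 0.89 ± 0.22 SE, edgeR adjusted p = 0.0099), a call lost without WT normoxia replicate 1 (adjusted p = 0.13, edgeR), without WT hypoxia replicate 1 (adjusted p = 0.13, edgeR) and without replicate 1 of both hypoxia groups (adjusted p = 0.059, edgeR). Its other differences, 0.32 with hypoxia in FIH-KO cells and 0.48 and -0.087 between genotypes at 21% and 1% O2, did not pass the edgeR test. Mlx, the partner of MondoA and ChREBP, ranged only from 29.4 to 39.7 CPM over the 8 libraries, and its 4 log2 differences of -0.21 to -0.033 did not pass the test (edgeR adjusted p = 0.31 to 0.91).

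The difference between the 2 genotypes in their change with oxygen was tested for every gene as an interaction. No member was called, with log2 differences of -0.77 (Mxd1) to 0.42 (Mxd3). The test called 0 of 13933 genes with edgeR (0% of all genes), where 925 had an unadjusted p under 0.05, and 40 with DESeq2, where 705 did. For 6 of the 8 members, Myc, Max, Mxd1, Mxd4, Mxi1 and Mnt, the estimated difference was negative, and every 95% interval included 0. The median difference over all genes tested was also below 0, at -0.019, so these signs are not read as a shared change.

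**Figure D2:**
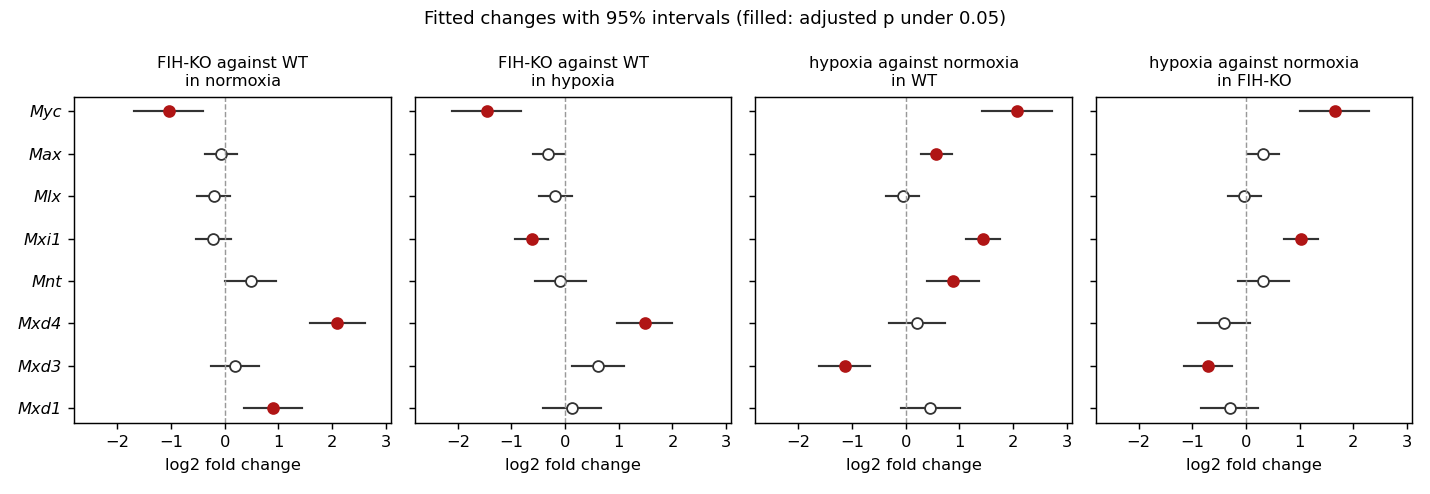
Fitted log2 fold change (x axis, second condition over first) of the 8 tested members in the 4 comparisons, with 95% intervals as lines. Filled points passed the edgeR test at an adjusted p under 0.05. Myc is at -1.04 and -1.47 in FIH-KO cells and at 2.07 and 1.65 with hypoxia, Mxd4 is at 2.10 and 1.48 in FIH-KO cells, and Mlx sits near 0 in all 4 panels.

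The levels of different members were compared per kilobase of annotated exon, a scale that understates genes with many unused exons. In WT normoxia Myc was highest at a mean of 83.5 CPM per kb, followed by Max at 24.9, Mlx at 17.0, Mnt at 10.7, Mxi1 at 9.58, Mxd3 at 5.95, Mxd4 at 1.92 and Mxd1 at 0.612, with 2 libraries each. Only Mnt and Mxi1, neighbours in this order, had overlapping libraries. In FIH-KO normoxia Mxd4, at 8.23 CPM per kb, overlapped with Mxi1 at 8.29 and with Mxd3 at 6.78, and Mnt overlapped with Mlx. In WT hypoxia Mxi1, at 26.1 CPM per kb, was the most abundant repressor without overlap with Mnt at 19.8, Mnt overlapped with Mlx at 16.4 and Mxd3 with Mxd4, while in FIH-KO hypoxia Mxi1 at 16.9 overlapped with Mnt at 18.7 and with Mlx at 14.4. Myc was first and Max second in all 4 groups, and Mxd1 was last.

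The summed level of the 5 repressor genes, given without a test, was lowest in the WT normoxia libraries. It was 26.2 and 31.4 CPM per kb in WT normoxia, 40.3 and 38.5 in FIH-KO normoxia, 55.3 and 48.1 in WT hypoxia and 53.2 and 40.5 in FIH-KO hypoxia. Both WT hypoxia libraries stood above both WT normoxia libraries, whereas in FIH-KO cells hypoxia replicate 1 stood above the normoxia libraries and hypoxia replicate 2 was level with them. Mxd4 made up 6.72% and 6.60% of that sum in WT normoxia and 4.84% and 3.60% in WT hypoxia, but 24.7% and 16.8% in FIH-KO normoxia and 13.0% and 13.5% in FIH-KO hypoxia. All 4 FIH-KO libraries thus had a larger Mxd4 share than all 4 WT libraries. Mxi1 made up 20.7% and 21.3% in FIH-KO normoxia and 47.2% and 54.4% in WT hypoxia, its lowest and highest shares.

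Myc exceeded the summed repressor genes 3.53-fold and 2.38-fold in the WT normoxia libraries and 7.74-fold and 5.70-fold in the WT hypoxia libraries. In FIH-KO cells the ratio was 0.844 and 1.22 in normoxia and 3.21 and 2.06 in hypoxia. FIH-KO normoxia was thus the group with the lowest ratio and WT hypoxia the one with the highest, and the FIH-KO hypoxia libraries overlapped with the WT normoxia libraries. The ratio of Myc to Max per kb gave the same lowest and highest group, with 3.50 and 3.19 in WT normoxia, 1.40 and 2.02 in FIH-KO normoxia, 10.6 and 8.24 in WT hypoxia and 5.22 and 3.14 in FIH-KO hypoxia. These ratios are of RNA, were formed after the separate tests and carry no test of their own.

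**Figure D3:**
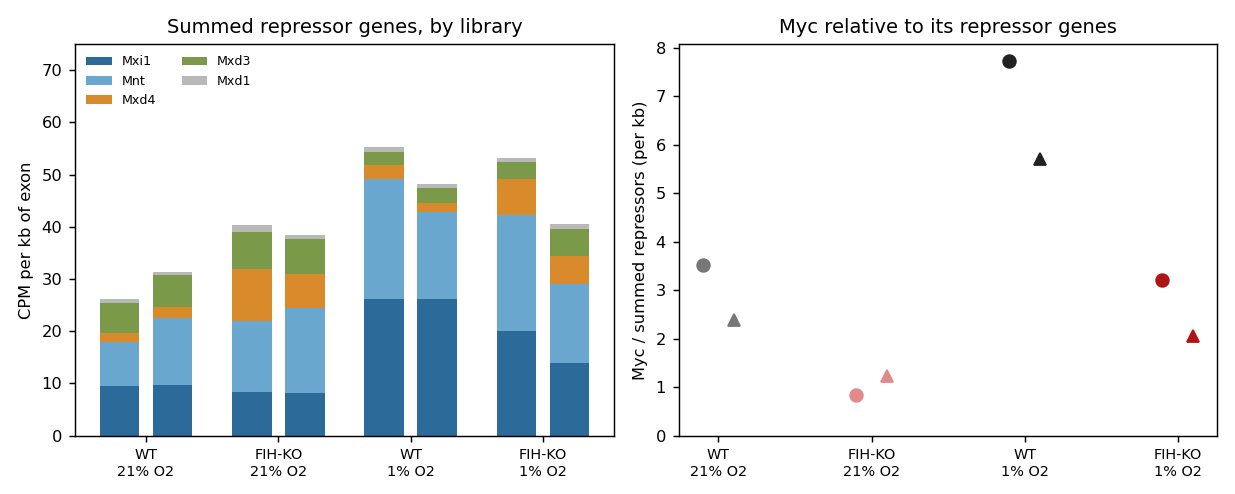
Left, stacked bars of the 5 repressor genes in CPM per kb of exon for each of the 8 libraries, replicate 1 before replicate 2 in each group. Right, the ratio of Myc to the summed repressors per library (linear axis from 0, circles replicate 1, triangles replicate 2). Mxd4 takes up to 24.7% of the bar in FIH-KO normoxia, and the ratio runs from 0.844 in FIH-KO normoxia to 7.74 in WT hypoxia.

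Across the 8 libraries the members fell into patterns, given here as a description over 8 points that share 4 groups. Log2 CPM of Myc went with that of Max (Pearson r = 0.945) and Mxi1 (r = 0.942) and ran against Mxd3 (r = -0.963), and Mxi1 ran against Mxd3 most closely (r = -0.988). Mxd1 went with Mxd4 (r = 0.834), and Myc and Mxd4 were weakly opposed (r = -0.533). In a pool of 10576 genes that averaged 50 or more reads, the genes most like Myc were Eaf1 (r = 0.995), an elongation factor partner, Ldlrad3 (r = 0.995) and Eprs (r = 0.991), an aminoacyl-tRNA synthetase. Those most like Mxd4 were the ephrin receptor gene Ephb3 (r = 0.992), Fbxo6 (r = 0.988) and the mitophagy kinase gene Pink1 (r = 0.988). Those most like Mxi1 were Neurl4 (r = 0.997), the glycogen-binding Stbd1 (r = 0.996) and Jmy (r = 0.995). Mxd3 was most like Nme3 (r = 0.995), the augmin subunit gene Haus7 (r = 0.994) and the condensin subunit gene Ncaph (r = 0.992).

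Genes known to be activated by Myc were lower in FIH-KO cells. Of 34 listed targets, all tested, 26 fell at 21% O2 (median log2 -0.58, against -0.0025 over all genes tested), where 13.0% of all genes were called lower. The largest drops among those with a mean of at least 50 reads were in the translation factor Eif4e (log2 -1.16 ± 0.10 SE, edgeR adjusted p = 1.8e-05), the nucleolar proteins Nolc1 (log2 -1.16 ± 0.20 SE, edgeR adjusted p = 0.0013) and Npm1 (log2 -1.03 ± 0.13 SE, edgeR adjusted p = 0.00021). At 1% O2, 20 of 34 fell (median -0.55), where 13.9% of all genes were called lower, led by the transferrin receptor Tfrc (log2 -1.13 ± 0.23 SE, edgeR adjusted p = 0.0039), Nolc1 (log2 -1.07 ± 0.20 SE, edgeR adjusted p = 0.0021) and the phosphatase Cdc25a (log2 -1.03 ± 0.17 SE, edgeR adjusted p = 0.0011). The count at 21% O2 was lower without either WT normoxia library or without FIH-KO normoxia replicate 1. That at 1% O2 was lower without WT hypoxia replicate 1 or without FIH-KO hypoxia replicate 2. In each of these fits fewer of all genes were called lower as well. The 5 named genes kept their call without any single library. The telomerase gene Tert, named after its values were seen, had 89 and 73 reads in WT normoxia, 14 and 13 in FIH-KO normoxia, 70 and 72 in WT hypoxia and 5 and 7 in FIH-KO hypoxia. Npm1 and Cdc25a were also named by the study from these libraries, so they are not independent evidence of the direction. The study also showed Myc targets among the selected gene sets of its enrichment analysis of these libraries. The fall of the listed targets is therefore not independent evidence either.

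With hypoxia the same 34 targets moved in both directions. In WT cells, where Myc rose 4.21-fold, 4 were higher and 9 lower (median log2 -0.19), with 16.9% of all genes called higher and 15.5% lower. The 4 that rose were Tfrc (log2 1.46 ± 0.24 SE, edgeR adjusted p = 0.00078), the cyclin gene Ccnd2 (log2 1.11 ± 0.16 SE, edgeR adjusted p = 0.00038), the lactate dehydrogenase gene Ldha (log2 0.63 ± 0.14 SE, edgeR adjusted p = 0.0043) and the mitochondrial enzyme gene Shmt2 (log2 0.59 ± 0.14 SE, edgeR adjusted p = 0.007), the last pair named to complete the count. Tfrc and Ldha are also known HIF targets. The largest fall was in the nucleoside diphosphate kinase gene Nme1 (log2 -0.82 ± 0.13 SE, edgeR adjusted p = 0.00071). In FIH-KO cells, with Myc up 3.14-fold, the same 4 genes rose, Ldha most (log2 1.51 ± 0.14 SE, edgeR adjusted p = 3.3e-05), and 3 fell (median -0.0011), with 8.84% of all genes called higher and 1114 of 13933 genes lower. The Tfrc call there was lost without FIH-KO normoxia replicate 1 (edgeR adjusted p = 0.05). Fewer targets were called lower in WT cells without either WT normoxia library or without WT hypoxia replicate 2. The same held in FIH-KO cells without FIH-KO normoxia replicate 2. In these fits, too, fewer of all genes were called lower.

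Genes known to be repressed by Myc rose with hypoxia in WT cells, in 6 of 10 tested cases (median log2 0.96), and 1 fell. Of all genes, 16.9% were called higher and 15.5% lower there. Myc itself rose 4.21-fold in the same comparison, so these genes did not move opposite to Myc RNA. The stress gene Ndrg1 rose by 3.97 (0.25 SE, edgeR adjusted p = 2.1e-06), the growth arrest gene Gadd45a by 2.52 (0.41 SE, edgeR adjusted p = 0.00086) and the cyclin-dependent kinase inhibitor Cdkn1a by 1.32 (0.18 SE, edgeR adjusted p = 0.00026). In FIH-KO cells 4 rose and 1 fell, where 8.84% of all genes were called higher and 1114 of 13933 lower, again with Ndrg1 first (log2 3.41 ± 0.24 SE, edgeR adjusted p = 3.4e-06). Between genotypes at 21% O2, 2 rose, Cdkn1a (log2 0.94 ± 0.18 SE, edgeR adjusted p = 0.0023) and Ndrg1 (log2 0.70 ± 0.23 SE, edgeR adjusted p = 0.035), and Ndrg2 fell (log2 -0.79 ± 0.16 SE, edgeR adjusted p = 0.0038). Of all genes, 15.2% were called higher and 13.0% lower there, so these counts of 10 are near the background. The Ndrg1 call was lost without any single normoxia library or without WT hypoxia replicate 1 (edgeR adjusted p up to 0.21). At 1% O2 Ndrg2 (log2 -1.33 ± 0.16 SE, edgeR adjusted p = 0.00013) and Cebpa (log2 -1.24 ± 0.36 SE, edgeR adjusted p = 0.024) fell, where 13.9% of all genes were called lower, and the latter call was lost without any single hypoxia library (edgeR adjusted p up to 0.23).

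The extended Max-like and Mlx-like network, with 5 of 6 genes tested, had 4 genes that rose with hypoxia in WT cells (Arrdc4, Txnip, Mga and Klf10) and 2 in FIH-KO cells (Mga and Klf10), where 16.9% and 8.84% of all genes were called higher. Arrdc4, an arrestin-like gene and a target of MondoA, had few reads, with 7 and 6 in WT normoxia, 13 and 7 in FIH-KO normoxia, 73 and 26 in WT hypoxia and 25 and 26 in FIH-KO hypoxia. It had the largest rise in WT cells (log2 2.86 ± 0.53 SE, edgeR adjusted p = 0.0017), called in all 15 alternatives that tested it, and it is named, like Klf10, to complete the count. The Klf10 calls were lost without either WT normoxia library, among other alternatives. Mga, a very large protein that also pairs with Max, was read at 184 and 168 CPM in WT normoxia, 155 and 153 in FIH-KO normoxia, 393 and 350 in WT hypoxia and 331 and 304 in FIH-KO hypoxia, without overlap between the oxygen levels. It rose with hypoxia by 1.08 on the log2 scale in WT (0.11 SE, edgeR adjusted p = 4.2e-05) and 1.04 in FIH-KO cells (0.11 SE, edgeR adjusted p = 0.00011), in every alternative. Txnip, a thioredoxin-binding protein and the classic target of MondoA and ChREBP with Mlx, was read at 32.3 and 36.0 CPM in WT normoxia, 189 and 90.8 in FIH-KO normoxia, 176 and 97.5 in WT hypoxia and 135 and 114 in FIH-KO hypoxia. Only the WT normoxia libraries were low, and in FIH-KO cells the oxygen levels overlapped (log2 -0.17, edgeR adjusted p = 0.76). Txnip rose by 2.03 in FIH-KO cells at 21% O2 (0.31 SE, edgeR adjusted p = 0.00065) and by 2.0 in WT cells with hypoxia (0.31 SE, edgeR adjusted p = 0.00064). The first of these fell to 1.39 without FIH-KO normoxia replicate 1 and stayed called. Mlx itself was not called in either comparison. Mlxip fell in FIH-KO cells at 1% O2 (log2 -0.45 ± 0.14 SE, edgeR adjusted p = 0.029), a call that was lost in 8 of 16 alternatives, every single hypoxia library left out among them (edgeR adjusted p up to 0.19).

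Of the cofactors through which the network acts, few were called. Of 12 coactivator genes, 2 fell in FIH-KO cells at 21% O2, Actl6a (log2 -0.83 ± 0.13 SE, edgeR adjusted p = 0.00085) and the helicase gene Ruvbl1 (log2 -0.64 ± 0.12 SE, edgeR adjusted p = 0.0021), and 3 fell at 1% O2, where 13.0% and 13.9% of all genes were called lower. The 3 at 1% O2 were Actl6a, called in 12 of 16 alternatives, Ruvbl1, in 7, and Ccnt1, in 3. With hypoxia in WT cells 2 of the 12 rose, led by the cyclin T gene Ccnt1 (log2 0.72 ± 0.10 SE, edgeR adjusted p = 0.00032), and 2 fell. Of all genes, 16.9% were called higher and 15.5% lower there, so these counts are near the background. Of 13 corepressor genes of the Mxd proteins, Sap30, a Sin3 complex subunit, rose with hypoxia in WT (log2 1.64 ± 0.17 SE, edgeR adjusted p = 5e-05) and FIH-KO cells (log2 1.91 ± 0.18 SE, edgeR adjusted p = 4.5e-05). No other gene of this list was called higher with hypoxia, where 16.9% of all genes in WT and 8.84% in FIH-KO cells were. The deacetylase gene Hdac1 (log2 -0.61 ± 0.12 SE, edgeR adjusted p = 0.0021) and the histone chaperone gene Rbbp7 (log2 -0.50 ± 0.11 SE, edgeR adjusted p = 0.0039) were among the 3 of 13 that fell in WT cells with hypoxia, beside 15.5% of all genes. Between genotypes 2 corepressor genes fell at 21% O2 and 1 at 1% O2, led by Sap30 at 21% O2 (log2 -0.75 ± 0.19 SE, edgeR adjusted p = 0.010), a call lost without WT normoxia replicate 1 (edgeR adjusted p = 0.093). The call at 1% O2 was also Sap30 (log2 -0.48 ± 0.17 SE, edgeR adjusted p = 0.047) and was kept in only 3 of 16 alternatives. The genotype counts of both cofactor lists are therefore small and close to the share over all genes or below it, except the 3 of 12 coactivators at 1% O2.

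Among 17 genes that control the stability of Myc protein, 3 rose and 4 fell in FIH-KO cells at 21% O2 and 1 rose and 4 fell at 1% O2. Of all genes, 15.2% were called higher and 13.0% lower at 21% O2, and 14.1% and 13.9% at 1% O2, so the rises are near or below the background. Usp36, a nucleolar deubiquitinase that stabilizes Myc, fell by 0.92 in FIH-KO cells at 1% O2 (0.16 SE, edgeR adjusted p = 0.0016) and rose by 0.96 with hypoxia in WT cells (0.16 SE, edgeR adjusted p = 0.0011). The kinase gene Gsk3b, whose product marks Myc for degradation, rose with hypoxia in WT (log2 0.69 ± 0.10 SE, edgeR adjusted p = 0.00053) and FIH-KO cells (log2 0.60 ± 0.10 SE, edgeR adjusted p = 0.0023). Skp2, an F-box ubiquitin ligase subunit, fell with hypoxia in WT cells by 0.72 (0.15 SE, edgeR adjusted p = 0.0036).

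**Figure D4:**
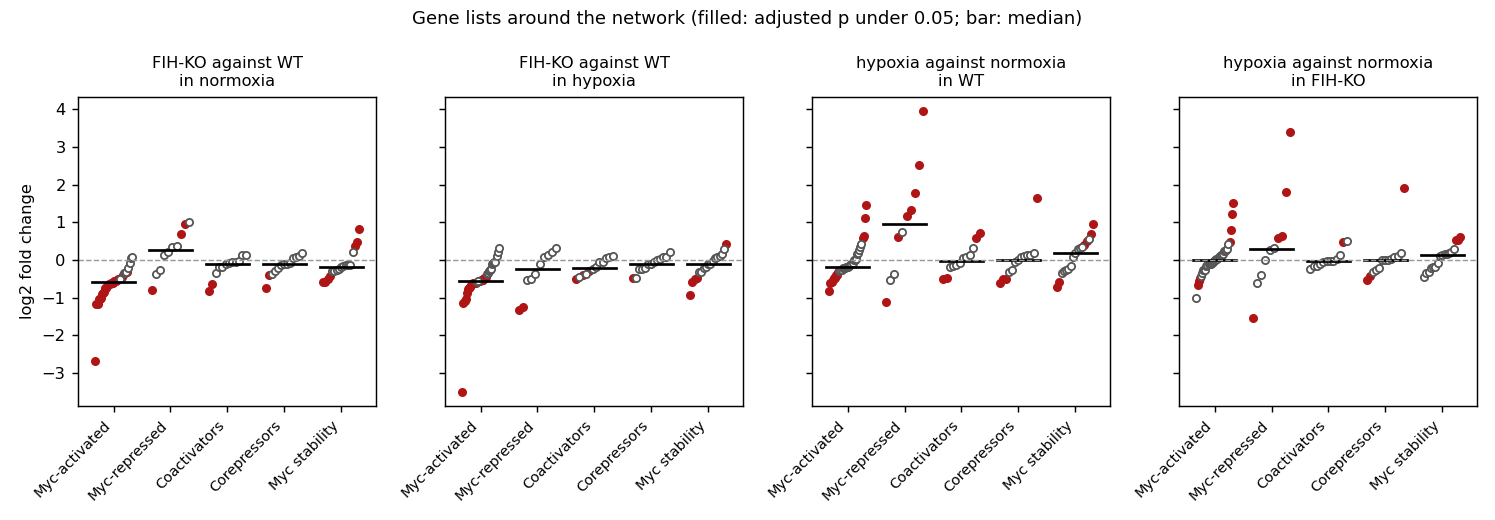
Log2 fold changes (y axis) of the tested genes of 5 lists in the 4 comparisons, sorted within each list; filled points passed the edgeR test at an adjusted p under 0.05 and black bars are medians. The Myc-activated genes lie mostly below 0 in FIH-KO cells (medians -0.58 and -0.55) and on both sides of 0 with hypoxia (medians -0.19 and -0.0011).

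Genes next to Myc on chromosome 15 (GRCm39) moved unevenly. Pvt1, the long noncoding RNA gene beside Myc, was read at 175 and 172 CPM in WT normoxia, 98.1 and 109 in FIH-KO normoxia, 313 and 303 in WT hypoxia and 181 and 104 in FIH-KO hypoxia. It was lower in FIH-KO libraries at each oxygen level without overlap. Pvt1 fell by 1.11 in FIH-KO cells at 1% O2 (edgeR adjusted p = 0.0013) and by 0.74 at 21% O2 (edgeR adjusted p = 0.012), the latter lost without WT normoxia replicate 1, WT normoxia replicate 2 or FIH-KO normoxia replicate 1 (edgeR adjusted p up to 0.088). Lratd2, the nearest tested gene on the other side, singled out with Pvt1 after their values were seen, had 30 and 36 reads in WT normoxia, 134 and 111 in WT hypoxia, 5 and 1 in FIH-KO normoxia and 7 and 0 in FIH-KO hypoxia. The 10 tested neighbours of Myc together had a median log2 difference of 0.033 at 21% O2 and -0.18 at 1% O2 between genotypes. At each oxygen level 4 of them were called lower and 1 higher in FIH-KO cells. Of all genes, 13.0% and 13.9% were called lower and 15.2% and 14.1% higher at 21% and 1% O2.

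Mxi1 lies on chromosome 19, as does Hif1an, and genes around it were lower in FIH-KO cells. Its 10 tested neighbours, up to 5357 kb away, had a median log2 difference of -0.67 at 21% O2 and -0.73 at 1% O2. The 475 tested genes of chromosome 19 other than Mxi1 had medians of -0.38 and -0.45, beside the -0.21 and -0.63 of Mxi1 itself. The nearest gene before it, Add3, also singled out after its values were seen, had 109 and 164 reads in WT normoxia, 242 and 231 in WT hypoxia, 5 and 0 in FIH-KO normoxia and 5 and 0 in FIH-KO hypoxia. The lower Mxi1 of FIH-KO cells at 1% O2 therefore stands beside a lower level of its whole chromosome, and the part of that in the result was not tested. For Mxd4 on chromosome 5 the neighbours had medians of -0.069 and -0.21, near those of the chromosome (-0.10 and -0.12), while Mxd4 itself was at 2.10 and 1.48.

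**Figure D5:**
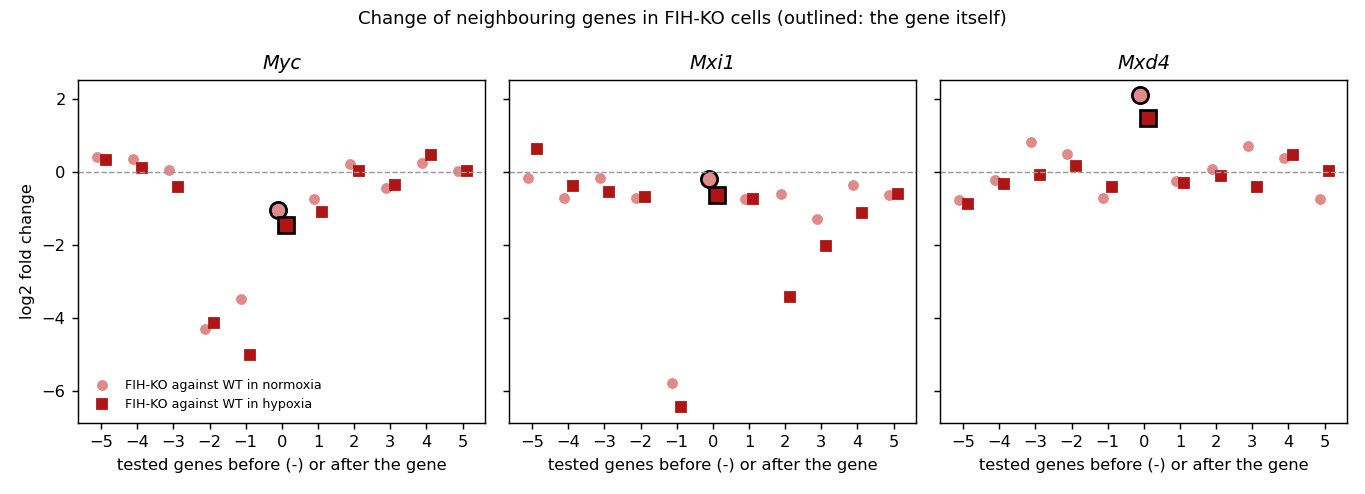
Log2 fold change of FIH-KO against WT cells (y axis) for the 5 tested genes on each side of Myc, Mxi1 and Mxd4, in chromosome order (x axis), at 21% O2 (circles) and 1% O2 (squares); outlined symbols are the gene itself. Mxd4 stands alone above its neighbours at 2.10 and 1.48, while most neighbours of Mxi1 lie below 0 (medians -0.67 and -0.73).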

How the data were processed

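Poly(A) RNA of 8 LLC libraries (WT and FIH-KO, 21% or 1% O2, 2 of each) was sequenced with a stranded kit. Alignment by the authors used STAR and GRCm39, and HTSeq produced the raw counts for each gene that they deposited. The submitters' processing notes also list GRCm38 and DESeq2. Annotation release, strand setting and multiple mapping are not given in the sources used here, so overlapping and antisense genes are uncertain. No per-sample column was left unused. Totals of 14519731 to 18177016 reads set the precision, and limits from counts of 0 (3 counts) cover counting error only.

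Counts were tested with edgeR 4.0.16 in R 4.3.3 (filterByExpr by group, TMM factors, quasi-likelihood fit with 1 mean per group over all 8 libraries, Benjamini-Hochberg adjustment over 13933 genes, threshold 0.05). Replicates of a group differed by more than sampling noise (chi-square per degree of freedom 5.66 to 23.3), and the biological coefficient of variation was 11.7%. Counts for FIH-KO against WT in normoxia (13933 genes) were also simulated, with 200 genes changed by 1 on the log2 scale. There edgeR called 132 of the 194 changed genes that were tested, and 11 unchanged genes. In the data 28.2% of genes were called, a far larger share than was changed, so this is not the power of the tests here. Alternatives were DESeq2 1.42.0, RLE and upper-quartile factors, other low-count filters, only the 4 libraries compared, a replicate block and each library left out; leaving out replicate 1 of both hypoxia groups was added after the data were seen.

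The members and all gene lists (Myc-activated and Myc-repressed targets, extended network, coactivators, corepressors, Myc stability, hypoxia targets and cell type markers) were chosen with earlier results of these data known. From each list, up to 3 called genes per comparison with the largest change and a mean of at least 50 reads were eligible to be named; others are marked. Levels per kb used union exon lengths of the reference annotation (GRCm39); 1090 genes had no match there. Genes like a member were ranked by Pearson r of log2 CPM with a prior count of 2. A gene that the naming rule selected is not reported here.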

Additional observations from a re-analysis of the deposited data

How the results depend on the processing

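Of the members, Myc (both hypoxia comparisons and FIH-KO at 1% O2), Mxi1 (both hypoxia comparisons), Mxd4 (both genotype comparisons) and Mxd3 (hypoxia in WT) were called in all 16 alternatives. Leaving out 1 library gave 1 to 3 called members at 21% O2 and 2 to 5 at 1% O2 between genotypes, and 4 to 6 in WT and 2 to 4 in FIH-KO cells with hypoxia. Myc-activated genes called lower then ranged from 13 to 29 and from 9 to 24 between genotypes at 21% and 1% O2, and from 3 to 9 and from 0 to 3 with hypoxia in WT and FIH-KO cells. Without replicate 1 of both hypoxia groups, fewer Myc-activated genes were called lower at 1% O2, and fewer of all genes were. With hypoxia in FIH-KO cells, 1 fell when only the 4 libraries compared were fitted. In that fit 481 of 13115 genes were called lower. The cause of these changes was not tested.

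Among the members, Hif1an and Arrdc4, directions turned only for differences that had not been called. Leaving out 1 library gave log2 ranges of -0.013 to 0.34 for Mxd1 and -0.35 to 0.20 for Mnt between genotypes at 1% O2 (Mnt 0.17 without FIH-KO hypoxia replicate 2). With hypoxia in WT cells, the ranges were -0.18 to 0.48 for Mxd4, -0.22 to 0.038 for Mlx and -0.026 to 0.11 for Hif1an, and without replicate 1 of both hypoxia groups the values were -0.17, 0.0073 and -0.010. With hypoxia in FIH-KO cells they were -0.53 to 0.0034 for Mxd1 and -0.10 to 0.084 for Mlx. The interaction ranged from -0.97 to 0.0056 for Myc and from -0.051 to 0.21 for Mlx, and was -0.031 for Mlx without replicate 1 of both hypoxia groups. Arrdc4 ranged from -0.054 to 0.91 between genotypes at 21% O2. Mnt at 21% O2 (log2 0.50, edgeR adjusted p = 0.003) and Mxd3 at 1% O2 (log2 0.65, edgeR adjusted p = 0.018) were called between genotypes with no filter on low counts.

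Whether libraries with the same replicate number were handled together is not given in the sources used here. Replicate differences correlated across genes between groups at -0.010 to 0.19, with the highest value between WT hypoxia and FIH-KO hypoxia. A correlation over all genes cannot show whether the libraries were paired, since a shared step may affect only some genes. With the replicate block, 3 and 4 members were called between genotypes at 21% and 1% O2, the added one being Max (log2 -0.32, edgeR adjusted p = 0.048), and Myc-activated genes called lower were 25 and 20. Where a fit left a group with 1 library, that library was assumed to vary like the other groups.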
